A study of Mus musculus with 15 samples.

Results

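The transcripts described here are those of 8 facilitative sugar transporters of the Slc2a family (*Slc2a1*, *Slc2a3*, *Slc2a5*, *Slc2a6*, *Slc2a8*, *Slc2a9*, *Slc2a10* and *Slc2a12*), 8 of the 24134 genes counted in primary mouse articular chondrocytes. They were chosen from the family because their values had been seen to move in opposite directions when tankyrase was suppressed. The contrasts that served for this choice were *Tnks* and *Tnks2* siRNAs against control siRNA, XAV939 against DMSO and IWR-1 against DMSO. The members' values in these contrasts are therefore a description. Below, an adjusted p under 0.05 only sorts these values into called and not called, and it adds no support. All 8 genes passed the filter on low counts in both count tables.

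Chondrocytes of the ICR strain at passage 0, isolated with collagenase from the knee cartilage of pups a few days old, were kept in medium with serum. In the drug set, cells received DMSO, 10 µM XAV939 or 10 µM IWR-1 for 108 h. In the siRNA set, cells were transfected with control siRNA or with siRNAs against both *Tnks* and *Tnks2* (siTnks/2), for a time that is not given. Each of the 5 groups had 3 libraries. No genotype other than the strain is given. Tankyrase (TNKS and TNKS2) attaches chains of ADP-ribose to its partner proteins, and XAV939 and IWR-1 are small molecules that inhibit it. The study's methods call the libraries of a group biological replicates. Whether these were separate pups, pools or cultures is not given in the sources used here, so the p-values below measure the spread between these libraries.

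Facilitative sugar transporters (GLUT proteins) let sugars cross membranes down their concentration gradient without using energy. Some members sit in the plasma membrane and set how much glucose enters the cell, others stay in endosomes, lysosomes or the endoplasmic reticulum, and a few carry fructose, urate or oxidised vitamin C rather than glucose. Cartilage has no blood vessels, and chondrocytes live on glucose that diffuses through the matrix, which they use largely in glycolysis and as a precursor of the glycosaminoglycans of the matrix.

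Library totals lay between 26857070 and 36615194 counts. The targeted genes were lower in the siTnks/2 libraries (*Tnks*, log2 fold change -1.81, SE 0.22, adjusted p = 0.00569, and *Tnks2*, -1.10, SE 0.11, adjusted p = 0.00384, edgeR's quasi-likelihood test). All 14 chondrocyte markers were at 1 CPM (TMM-normalised read counts scaled to a common library size) or more on average in every group. Their summed level was 96300 to 129000 CPM with control siRNA, 139000 to 224000 with siTnks/2, 29000 to 39500 with DMSO, 41300 to 61700 with XAV939 and 99300 to 126000 with IWR-1. Of these 14 markers, 7, 6 and 14 were called higher with siTnks/2, XAV939 and IWR-1, beside 10.4%, 7.57% and 16.2% of all genes. The summed level of 10 synovial and fibroblast markers was 5420 to 9320 CPM with control siRNA, 2920 to 8040 with siTnks/2, 12700 to 16400 with DMSO, 6650 to 9460 with XAV939 and 6100 to 9620 with IWR-1. The 14 leukocyte and osteoclast markers summed to 19.9 to 25.4 CPM with control siRNA and 24.1 to 26.9 with siTnks/2. Their sum was 58.4 to 66.8 CPM with DMSO, 57.5 to 62.0 with XAV939 and 32.8 to 40.1 with IWR-1. *Acp5*, *Cd14* and *Cd68* reached 25.6, 30.7 and 10.2 CPM in their highest library. *Ptprc*, the pan-leukocyte surface marker, did not pass 0.157 CPM in any library. Of those tested, 1 of 4 was called higher and 1 lower with siTnks/2, 0 of 7 with XAV939 and 4 of 7 lower with IWR-1. Among all genes, 18.0%, 17.4% and 36.4% were called. The blood cell genes *Hbb-bs* and *Hba-a1* were at 0 in every library, and the 10 endothelial and blood markers together summed to between 0.262 and 8.20 CPM. The 8.20 CPM came from 1 siTnks/2 library, where the median of that group was 0.881 and no library of another group passed 1.68. The 10 muscle and fat markers summed to between 7.68 and 50.1 CPM. The summed chondrocyte markers thus lay above the matching control in every treated group. The summed fibroblast markers lay below DMSO with both drugs, but with siTnks/2 they overlapped the control siRNA. The part of these marker changes in the transporter values was not tested. In these bulk samples, fewer cells of a type and less RNA per cell cannot be told apart.

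*Slc2a1* carried most of the transporter transcript in every group. On a scale of CPM per kilobase of exon, it stood at 67.6 ± 10.9 with control siRNA and 185 ± 11.9 with DMSO (SD, n = 3), which was 77.8% and 89.6% of the summed level of the 8 genes. *Slc2a10* and *Slc2a8* came next in all 5 groups, at 5.98 to 12.3 and 3.83 to 8.93 CPM per kilobase (group means). The ranges of *Slc2a10* and *Slc2a8* overlapped in the DMSO and XAV939 groups and did not overlap in the other groups. The other 5 genes had group means between 0.143 and 3.25 CPM per kilobase, and their order changed between groups. With control siRNA that order was *Slc2a5*, *Slc2a9*, *Slc2a6*, *Slc2a12* and *Slc2a3*, and only the ranges of *Slc2a12* and *Slc2a3* overlapped. With DMSO it was *Slc2a3*, *Slc2a6*, *Slc2a12*, *Slc2a9* and *Slc2a5*, with overlap between *Slc2a12* and *Slc2a9*. *Slc2a3* and *Slc2a5* thus held opposite ends of this minor group in the control states. With XAV939 the order was *Slc2a6*, *Slc2a3*, *Slc2a9*, *Slc2a5* and *Slc2a12*, in which *Slc2a5* overlapped both of its neighbours. With IWR-1 it was *Slc2a5*, *Slc2a6*, *Slc2a3*, *Slc2a9* and *Slc2a12* with no overlap between neighbours, and with siTnks/2 it was *Slc2a5*, *Slc2a9*, *Slc2a12*, *Slc2a3* and *Slc2a6*, also without overlap.

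**Figure D1:**
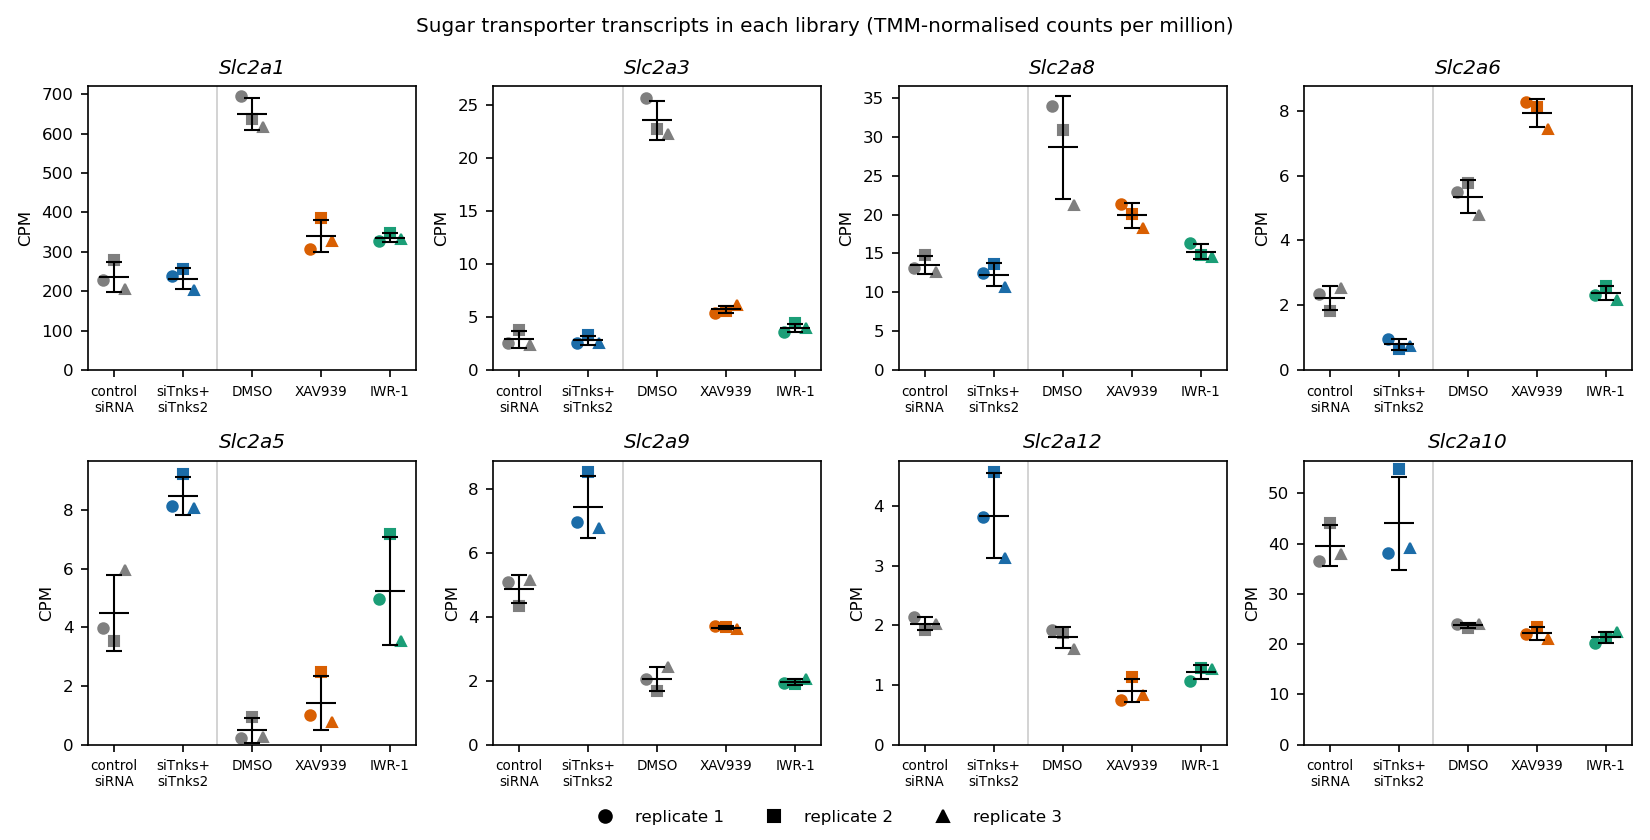
Normalised level of each transporter transcript (y axes, TMM-normalised CPM, starting at 0) in each library, with the siRNA set left and the drug set right of the grey line in every panel. Points are libraries, shaped by replicate number, and bars give the mean ± SD of 3 libraries. *Slc2a1* and *Slc2a3* stood highest in the DMSO libraries, *Slc2a5* lowest there, and *Slc2a6* was high with XAV939 and low with siTnks/2.

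The DNA just upstream of the start site is shown for 3 members, a pair that was lower with both drugs (*Slc2a1*, *Slc2a8*) and the one with the largest increase with IWR-1 (*Slc2a5*). The sequences are the 250 bases before the RefSeq start (GRCm38.p6, the assembly of mm10), read 5′ to 3′ on the gene's strand, from chr4:119108495-119108744 (plus strand), chr2:32982084-32982333 (minus) and chr4:150119094-150119343 (plus). Capitals mark the letters ACGTG, a form of the core of the hypoxia response element, in *Slc2a1*. The form GCGTG was not searched and is not marked.
Slc2a1: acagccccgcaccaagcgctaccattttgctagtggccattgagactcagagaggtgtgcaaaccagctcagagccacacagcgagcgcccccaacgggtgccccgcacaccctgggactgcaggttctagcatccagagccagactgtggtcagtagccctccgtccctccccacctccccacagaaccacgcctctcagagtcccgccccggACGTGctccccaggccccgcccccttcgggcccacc
Slc2a8: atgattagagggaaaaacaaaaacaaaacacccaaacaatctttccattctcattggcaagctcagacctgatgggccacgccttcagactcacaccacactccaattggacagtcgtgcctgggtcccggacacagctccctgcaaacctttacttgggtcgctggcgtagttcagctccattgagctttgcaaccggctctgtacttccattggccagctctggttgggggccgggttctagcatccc
Slc2a5: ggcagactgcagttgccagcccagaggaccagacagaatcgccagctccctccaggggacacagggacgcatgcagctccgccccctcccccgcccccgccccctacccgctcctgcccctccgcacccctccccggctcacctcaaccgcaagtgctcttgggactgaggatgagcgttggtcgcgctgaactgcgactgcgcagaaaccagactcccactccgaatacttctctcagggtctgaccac

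Promoter entries were found for 7 of the 8 members, and *Slc2a3* had none. The letters ACGTG, searched on both strands, lay 36 bases before the start of *Slc2a1* and in no other member's window, and 16.6% of the 32544 mouse promoter windows of this length hold them. This does not set *Slc2a1* apart by a hypoxia core, because the form GCGTG was not searched. The printed windows of *Slc2a1* and *Slc2a8* both hold that form on the opposite strand (cacgc). The AP-1 letters TGANTCA were in the window of *Slc2a9* only, against 6.73% of all windows. That window (chr5:38483386-38483635) lies inside the span of *Slc2a9* (chr5:38349272-38503147, minus strand), before an internal start and not upstream of the whole gene. The E-box CACGTG (6.03% of windows, and overlapping the letters ACGTG), the SOX core ACAATG (10.5%) and the TCF/LEF core CTTTGAT (3.21%) were in none of the 7 windows. *Slc2a1* and *Slc2a5*, whose values moved in opposite directions with the drugs, had the same GC content of 66.4%, above that of 85.1% of promoters. *Slc2a8* (52.8%) was near the median of 52.4%, and *Slc2a9* and *Slc2a12* (both 48.8%) were below it. These matches are a description of letters, not of bound sites.

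With siTnks/2, 4 of the 8 transporters passed an adjusted p of 0.05, beside 18.0% of all genes tested. 3 of them were higher (10.4% of all genes) and 1 was lower (7.61%). With XAV939, 6 of 8 passed (17.4% of all genes), 2 higher (7.57%) and 4 lower (9.85%). With IWR-1, 5 of 8 passed (36.4% of all genes), 1 higher (16.2%) and 4 lower (20.2%). These counts restate the choice of the genes. The median log2 fold change of the 8 genes was 0.06, -0.31 and -0.73 with siTnks/2, XAV939 and IWR-1, and that of all genes tested was -0.0012, 0.02 and 0.01. No member passed in the same direction in all 3 contrasts. *Slc2a1*, *Slc2a3* and *Slc2a8* were lower with both drugs and not called with siTnks/2. *Slc2a5* and *Slc2a9* were called higher with siTnks/2 and with 1 of the drugs each. *Slc2a6* and *Slc2a12* were called in opposite directions between contrasts, and *Slc2a10* was called in none. The contrasts of both drugs use the same DMSO libraries. The libraries of the groups did not overlap for 4, 5 and 7 of the 8 members with siTnks/2, XAV939 and IWR-1, beside 43.8%, 33.2% and 51.1% of all genes tested.

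**Figure D2:**
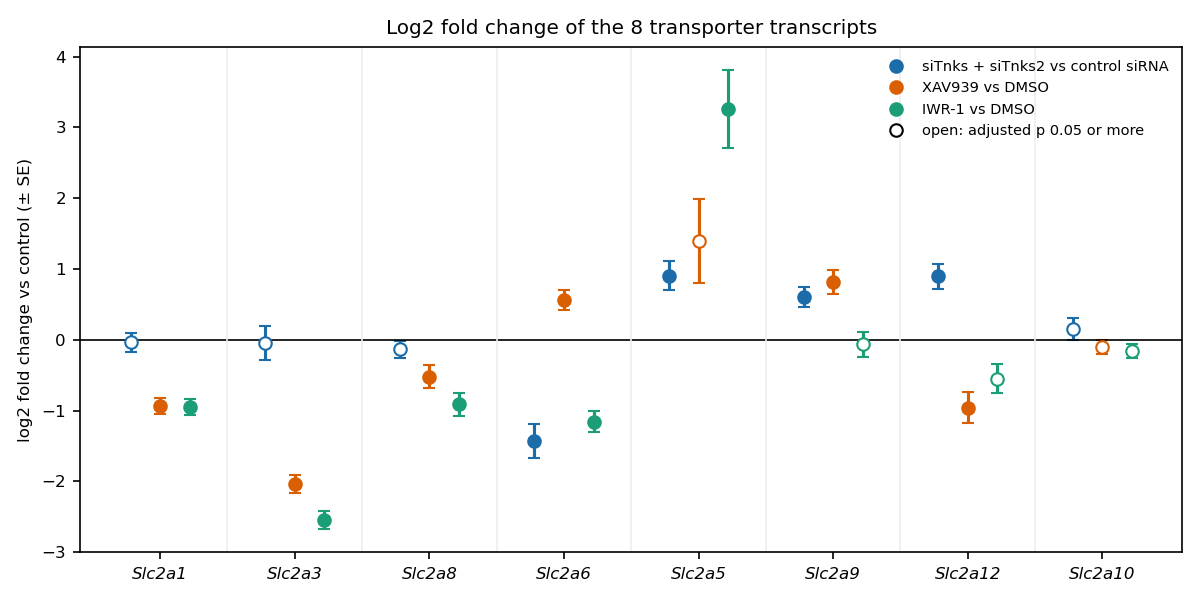
Log2 fold change ± SE (y axis) of the 8 transporter transcripts (x axis) with siTnks/2 (blue), XAV939 (orange) and IWR-1 (green) against the matching control, 3 libraries a group. Open points have an adjusted p of 0.05 or more. The 3 contrasts spread around 0, from -2.55 for *Slc2a3* to 3.26 for *Slc2a5*, both with IWR-1.

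*Slc2a1* (Entrez gene 20525, chr4:119108745-119137330) encodes GLUT1, the carrier of basal glucose uptake in most cells. Its level in replicates 1 to 3 was 227, 279.3 and 205 CPM with control siRNA and 238, 256 and 202 CPM with siTnks/2. These ranges overlapped, and the log2 fold change was -0.03 (SE 0.14). In the drug set it was 696, 637 and 616 CPM with DMSO, 307, 385 and 329 with XAV939, and 327, 348 and 332 with IWR-1. All 6 drug libraries lay below all 3 DMSO libraries. The decrease was 1.91-fold with XAV939 (log2 fold change -0.93, SE 0.11) and 1.93-fold with IWR-1 (-0.95, SE 0.11). The call held in every alternative, and leaving out single libraries moved these values between -1.03 and -0.86 and between -0.99 and -0.90. A stretch of 105 exon bases is shared with the antisense gene *Gm12868*, and the strand setting of the counting is not given.

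*Slc2a3* (20527, chr6:122727809-122802363) encodes GLUT3, a carrier with high affinity for glucose that is best known from neurons and white blood cells. It was near the bottom of the family in the siRNA set, at 2.52, 3.81 and 2.33 CPM with control siRNA and 2.53, 3.32 and 2.51 CPM with siTnks/2. The groups overlapped, with a log2 fold change of -0.04 (SE 0.24). With DMSO the level was 25.6, 22.7 and 22.3 CPM, with XAV939 5.42, 5.59 and 6.11 CPM, and with IWR-1 3.60, 4.40 and 3.91 CPM. The 3 groups did not overlap, and the IWR-1 libraries lay lowest. The decrease was 4.09-fold with XAV939 (log2 fold change -2.03, SE 0.13) and 5.85-fold with IWR-1 (-2.55, SE 0.13), the deepest fall in the family. Both calls held in every alternative, with values from -2.10 to -1.97 for XAV939 and -2.62 to -2.49 for IWR-1 when single libraries were left out.

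*Slc2a8* (56017, chr2:32972981-32982083) encodes GLUT8, which is kept inside the cell on endosomes and lysosomes. Its level was 13.1, 14.8 and 12.6 CPM with control siRNA and 12.4, 13.7 and 10.7 CPM with siTnks/2, with a log2 fold change of -0.13 (SE 0.12). With DMSO it was 33.9, 30.8 and 21.2 CPM, with XAV939 21.4, 20.1 and 18.2 CPM, and with IWR-1 16.3, 14.7 and 14.6 CPM. DMSO replicate 3 stood apart from the other DMSO libraries and below XAV939 replicate 1. The decrease with IWR-1 (log2 fold change -0.91, SE 0.16) held in every alternative. The value with XAV939 (-0.52, SE 0.16) passed the limit by little. It no longer passed with upper-quartile scaling, with only the 2 groups fitted, or without any single library other than DMSO replicate 3, and the values without 1 library ran from -0.71 to -0.38.

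*Slc2a6* (227659, chr2:27021363-27028000) encodes GLUT6, a carrier of lysosomal membranes. With control siRNA its level was 2.33, 1.81 and 2.54 CPM and with siTnks/2 0.972, 0.642 and 0.751 CPM, which is 49 to 83 counts a library against 18 to 28. All siTnks/2 libraries lay below the controls, with a log2 fold change of -1.43 (SE 0.24), a 2.69-fold decrease. With DMSO it was 5.49, 5.76 and 4.78 CPM, with XAV939 8.27, 8.11 and 7.44 CPM, and with IWR-1 2.33, 2.60 and 2.17 CPM. The DMSO libraries lay between those of the drugs, with all XAV939 libraries above and all IWR-1 libraries below. The log2 fold change was 0.57 (SE 0.14) with XAV939 and -1.16 (SE 0.15) with IWR-1. The call with IWR-1 held in every alternative. That with XAV939 was lost with only the 2 groups fitted (0.55) and without DMSO replicate 1, DMSO replicate 3 or XAV939 replicate 1, where leaving out single libraries gave 0.48 to 0.62. The call with siTnks/2 was lost without control siRNA replicate 1, in a range of -1.59 to -1.32.

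*Slc2a5* (56485, chr4:150119344-150144168) encodes GLUT5, the fructose carrier of the intestine and kidney. It is also in the study's list of genes that were higher in osteoarthritic cartilage. With control siRNA it stood at 3.98, 3.55 and 5.97 CPM and with siTnks/2 at 8.16, 9.23 and 8.09 CPM. The groups did not overlap, with a log2 fold change of 0.90 (SE 0.20). In the DMSO libraries only 8, 33 and 8 counts were found (0.244, 0.960 and 0.251 CPM), with XAV939 38, 66 and 25 counts (1.02, 2.48 and 0.772 CPM), and with IWR-1 171, 224 and 122 counts (4.97, 7.19 and 3.54 CPM). Replicate 2 was the highest library in each of these 3 groups, and XAV939 replicate 3 lay below DMSO replicate 2. The log2 fold change was 3.26 (SE 0.55) with IWR-1, a 9.58-fold increase, the largest of the family. It passed without each single library, with 4.09 without DMSO replicate 2 and a lowest value of 2.97. With XAV939 it was 1.40 (SE 0.59) and did not pass. Between libraries of the same replicate number the difference with XAV939 was 1.71, 1.28 and 1.31 on the log2 scale, and with the replicate number as a block it passed (1.43), as it did with DESeq2 (1.53). The XAV939 value was 2.23 and passed without DMSO replicate 2, and it was 0.80 and did not pass without XAV939 replicate 2.

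*Slc2a9* (117591, chr5:38349272-38503147) encodes GLUT9, which mainly carries urate. Its level was 5.10, 4.36 and 5.17 CPM with control siRNA and 6.98, 8.56 and 6.79 CPM with siTnks/2, without overlap (log2 fold change 0.60, SE 0.14). With DMSO it was 2.07, 1.69 and 2.42 CPM, with XAV939 3.72, 3.68 and 3.61 CPM, and with IWR-1 1.95, 1.89 and 2.06 CPM. The XAV939 libraries lay close to each other and above all DMSO and IWR-1 libraries, which overlapped. The log2 fold change was 0.82 (SE 0.17) with XAV939 and -0.06 (SE 0.18) with IWR-1. *Slc2a9* was thus higher with siTnks/2 and XAV939 and nearly level with IWR-1. *Slc2a5* was called with IWR-1 and not with XAV939, although its XAV939 value was also positive (1.40) and passed with the replicate block and with DESeq2.

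*Slc2a12* (353169, chr10:22644990-22703880) encodes GLUT12, a glucose carrier of muscle and fat. With control siRNA it stood at 2.15, 1.92 and 2.02 CPM and with siTnks/2 at 3.82, 4.56 and 3.13 CPM, a log2 fold change of 0.89 (SE 0.18) without overlap. With DMSO it was 1.92, 1.86 and 1.60 CPM, with XAV939 0.755, 1.13 and 0.833 CPM, and with IWR-1 1.08, 1.28 and 1.28 CPM. Both drugs gave values below every DMSO library, opposite in direction to siTnks/2. The log2 fold change was -0.96 (SE 0.22) with XAV939 and -0.55 (SE 0.21) with IWR-1, which did not pass. The IWR-1 value passed with the replicate number as a block (-0.54), with a minimum of 10 counts in every library (-0.55), with only the 2 groups fitted (-0.55) and without XAV939 replicate 2. Of its 4237 exon bases, 407 are shared with *Tbpl1* on the opposite strand, whose log2 fold change was 0.22, 0.08 and 0.53 with siTnks/2, XAV939 and IWR-1.

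*Slc2a10* (170441, chr2:165503897-165519917) encodes GLUT10, an intracellular carrier linked to vitamin C and glucose, whose loss in humans causes arterial tortuosity syndrome. It is also in the cartilage-signature list of the study. Its level was 36.6, 44.2 and 37.9 CPM with control siRNA, 38.1, 54.8 and 39.2 with siTnks/2, 24.1, 23.3 and 23.98 with DMSO, 22.04, 23.5 and 21.0 with XAV939, and 20.2, 21.4 and 22.5 with IWR-1. SiTnks/2 replicate 2 was the highest library of all and the other siTnks/2 libraries were within the control range. The log2 fold changes were 0.16 (SE 0.15), -0.10 (SE 0.10) and -0.15 (SE 0.10), and none passed.

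The siTnks/2 calls rested on single libraries more than those of the drugs. Without control siRNA replicate 1, edgeR called 0 of the 8 members, although 4 still had an unadjusted p under 0.05 and DESeq2 called 4 with all libraries. Without replicate 2 of the control siRNA or replicate 1 of siTnks/2, only *Slc2a6* passed, and without replicate 3 of the control siRNA *Slc2a5* and *Slc2a6* passed. The fall was not particular to the transporters. Over all genes, the siTnks/2 calls went from 2459 to 608, 930 and 678 without control siRNA replicate 1, 2 and 3. Without siTnks/2 replicate 1 they went to 800. The directions of *Slc2a5*, *Slc2a6*, *Slc2a9* and *Slc2a12* held in each of these fits.

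Because *Slc2a1* dominated, the summed level of the family followed it. The sum of the 8 genes was 86.8 ± 11.9 CPM per kilobase with control siRNA and 87.8 ± 10.9 with siTnks/2 (SD, n = 3). With DMSO it was 207 ± 14.02, with XAV939 114.0 ± 12.0 and with IWR-1 110.0 ± 3.67. The siRNA groups overlapped, and every drug library lay below every DMSO library. The share of *Slc2a1* was 89.6% with DMSO, 85.0% with XAV939 and 87.1% with IWR-1.

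The makeup of the other 7 transporters differed more between groups. Among them, *Slc2a3* made up 15.2% of the summed level with DMSO (14.2% to 16.3% over libraries), 4.65% with XAV939 (4.30% to 5.33%) and 3.85% with IWR-1 (3.54% to 4.10%). *Slc2a5* made up 0.658%, 2.41% and 10.7% in the same groups, and *Slc2a6* 7.77%, 14.5% and 5.18%. The glucose carrier *Slc2a3* was thus the largest of the 5 minor members with DMSO, the lysosomal *Slc2a6* with XAV939 and the fructose carrier *Slc2a5* with IWR-1. In the siRNA set *Slc2a10* made up 57.8% with control siRNA and 56.7% with siTnks/2, while *Slc2a5* stood at 6.96% and 11.6% and *Slc2a6* at 3.66% and 1.17%.

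**Figure D3:**
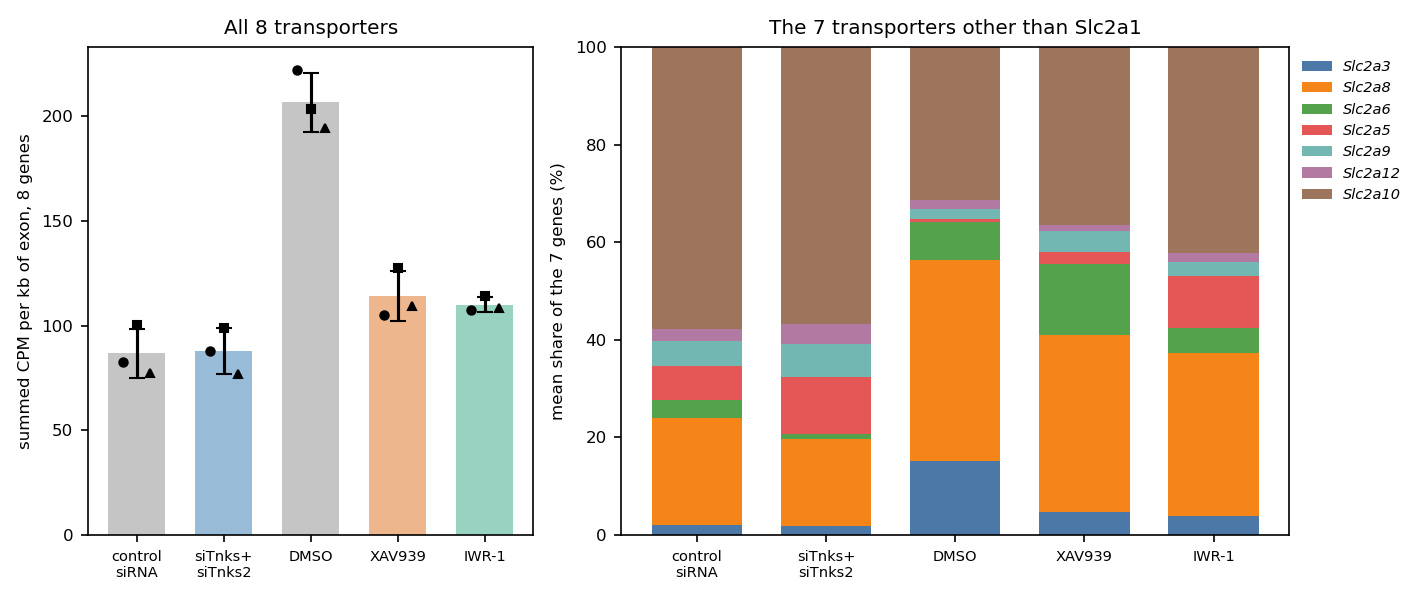
Left, summed level of the 8 transporters (y axis, CPM per kilobase of exon), with points for libraries and bars for the mean ± SD of 3. Right, mean share (y axis, percent) of each transporter other than *Slc2a1* in the summed level of these 7. The sum was highest with DMSO (207), and *Slc2a5* took 0.658% of the minor transporters there and 10.7% with IWR-1.

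The drugs were given at the same dose and time, and their direct comparison is made of the same libraries that chose the genes. Of the 8 transporters, 4 passed between IWR-1 and XAV939, beside 17.6% of all genes tested, 1 higher with IWR-1 (7.37% of all genes) and 3 lower (10.2%). The libraries of the drugs did not overlap for 5 members, beside 37.6% of all genes. *Slc2a5* was 3.63-fold higher with IWR-1 (log2 difference 1.86, SE 0.49, and 2.46 without XAV939 replicate 2). *Slc2a6* was 3.30-fold lower (-1.72, SE 0.15), *Slc2a9* 1.84-fold lower (-0.88, SE 0.17) and *Slc2a3* 1.43-fold lower (-0.52, SE 0.13). The calls of *Slc2a6* and *Slc2a9* held without each single library, and those of *Slc2a5* and *Slc2a3* did not. Only 2 members passed without IWR-1 replicate 1 or without XAV939 replicate 3. *Slc2a8* (-0.39, SE 0.16) passed with the replicate block (-0.38) and with only the 2 groups fitted. *Slc2a1* was nearly level between the drugs (-0.02, SE 0.11), as was *Slc2a10* (-0.05, SE 0.10), and *Slc2a12* was at 0.41 (SE 0.22).

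The transporters also differed between the control states. Fitted over all 15 libraries, 7 of the 8 passed between DMSO and control siRNA, beside 48.0% of all genes, 4 higher (23.0%) and 3 lower (25.0%) with DMSO. *Slc2a3* was 7.95-fold higher with DMSO (log2 difference 2.99, SE 0.18), *Slc2a1* 2.71-fold (1.44, SE 0.13), *Slc2a6* 2.32-fold (1.22, SE 0.16) and *Slc2a8* 2.09-fold (1.07, SE 0.15). *Slc2a5* was 8.36-fold lower (-3.06, SE 0.49, and -3.87 without DMSO replicate 2), *Slc2a9* 2.36-fold (-1.24, SE 0.16) and *Slc2a10* 1.68-fold (-0.75, SE 0.13), whereas *Slc2a12* was at -0.19 (SE 0.19). In CPM normalised within each set, the IWR-1 libraries were on average nearer to the control siRNA level than the DMSO libraries were for *Slc2a1*, *Slc2a3*, *Slc2a5*, *Slc2a6* and *Slc2a8*. The same was seen with XAV939 for *Slc2a1*, *Slc2a3*, *Slc2a5*, *Slc2a8* and *Slc2a9*. For *Slc2a6* the XAV939 libraries were farther from the control siRNA level than the DMSO libraries were. For *Slc2a10* and *Slc2a12* the libraries of both drugs were farther from it. The IWR-1 libraries were also slightly farther from it for *Slc2a9* (1.97 CPM against 2.06 with DMSO). The DMSO and siRNA libraries differ in treatment, set and possibly in time of culture, which cannot be told apart, and the DMSO libraries are the same that chose the genes.

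The genes with the most similar course over the 15 libraries were found for each transporter by the root mean square (RMS) difference of log2 CPM, each value taken relative to its own control group, among 13342 genes. For *Slc2a1* these were *Egln1* (RMS difference 0.113), an oxygen-sensing prolyl hydroxylase, and *Rassf1* (0.117). For *Slc2a3* they were *Csrnp1* (0.244) and *Celsr3* (0.246), and for *Slc2a8* *Prdx5* (0.0840), a peroxiredoxin, and *Slc39a13* (0.105), a zinc carrier. For *Slc2a6* they were *Psrc1* (0.253) and *Ube2l6* (0.279), for *Slc2a5* *Zfp385c* (0.349) and the sorting nexin *Snx22* (0.386), and for *Slc2a9* *Sfxn5* (0.129) and *Sv2a* (0.182). *Slc2a12* was nearest to *Trim62* (0.186) and *Clmn* (0.189), and *Slc2a10*, which hardly moved, to *Btrc* (0.0811). Within the family *Slc2a1* and *Slc2a8* were the closest pair (0.251), with 107 genes closer to *Slc2a1*. These genes were picked for their likeness, so their own changes add no support.

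Of the 4 other Slc2a genes listed in the tables, *Slc2a2*, the glucose carrier of liver and pancreas, had 0 counts in all 15 libraries, and *Slc2a7* had 1 count in 1 library. *Slc2a4*, the insulin-responsive GLUT4, did not pass 1.36 CPM in any library. It was lower with IWR-1 (log2 fold change -0.84, SE 0.31, adjusted p = 0.0285, edgeR), a call that was lost with DESeq2 and without DMSO replicate 1, DMSO replicate 3, IWR-1 replicate 1 or IWR-1 replicate 2 (-1.03 to -0.67). *Slc2a13*, which carries myo-inositol, was higher with siTnks/2 at 15.7 ± 1.42 CPM against 11.3 ± 1.10 (SD, n = 3; log2 fold change 0.47, SE 0.11, adjusted p = 0.0311 in the edgeR fit over all genes). That call was lost without any 1 control siRNA library or siTnks/2 replicate 1 (0.40 to 0.55). With XAV939, where 17.4% of all genes passed, edgeR called 0 of these genes, also at an unadjusted p under 0.05 and with DESeq2.

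Around the transporters, 120 genes of sugar handling were listed by function, the 4 other Slc2a genes included. With siTnks/2, 32 of 97 tested passed (33.0%, against 18.0% of all genes), 16 higher and 16 lower. With XAV939, 19 of 98 passed (19.4%, against 17.4%), 3 higher and 16 lower. With IWR-1, 51 of 98 passed (52.0%, against 36.4%), 9 higher and 42 lower. The replicate block gave 49 and 35 for siTnks/2 and XAV939, and DESeq2 gave 30 for XAV939. With the block the calls over all genes also rose, from 2459 to 4727 and from 2416 to 4630. The share of all genes called by DESeq2 is not given here. Leaving out control siRNA replicate 1, 2 or 3 or siTnks/2 replicate 1 left 6, 11, 9 and 10 calls with siTnks/2, and leaving out DMSO replicate 1 left 12 with XAV939. Over all genes, these fits left 608, 930, 678, 800 and 1322 calls.

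Glycolysis enzymes, which use the glucose that *Slc2a1* and *Slc2a3* bring in, were listed with lactate carriers, and these genes were mostly lower where they passed. Of 22 tested, 10 were lower and 3 higher with siTnks/2, 5 lower and 1 higher with XAV939, and 15 lower and 0 higher with IWR-1, with medians of -0.28, -0.30 and -0.51. Of all genes tested, 7.61%, 9.85% and 20.2% were lower in these contrasts. With XAV939 the 6 calls became 11 with DESeq2 and 14 with the replicate block, 12 of them lower. The block called 4630 of all 13873 genes there, 2410 of them lower. The lactate exporter *Slc16a3* was lower in all 3 contrasts, at 91.0 ± 10.3 CPM against 188 ± 42.2 with siTnks/2 (log2 fold change -1.04, adjusted p = 0.0109), 349 ± 23.3 against 708 ± 83.7 with XAV939 (-1.02, adjusted p = 0.000299), and 247 ± 11.5 with IWR-1 (-1.52, adjusted p = 7.53e-06). The phosphofructokinase *Pfkp* was lower with XAV939 (-1.07, SE 0.10, adjusted p = 0.000122) and the aldolase *Aldoc* with IWR-1 (-2.33, SE 0.22, adjusted p = 2.01e-05). Both were also lower with the other drug. When single libraries were left out, *Pfkp* ran from -1.15 to -1.09 with IWR-1 and *Aldoc* from -1.12 to -0.77 with XAV939. *Ldhb*, a lactate dehydrogenase subunit, was higher with siTnks/2 (0.70, SE 0.19, adjusted p = 0.0454), which did not hold without any 1 control siRNA library or siTnks/2 replicate 1. Unlike *Slc16a3*, *Slc2a1* and *Slc2a3* were not called with siTnks/2.

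Of 20 tested enzymes that trap sugars or lead them into glycogen, hexosamines and other routes, 2 were higher and 2 lower with siTnks/2, 2 higher and 7 lower with XAV939, and 3 higher and 10 lower with IWR-1. Among all genes, 18.0%, 17.4% and 36.4% passed in these contrasts. The glycogen branching enzyme *Gbe1* was lower with XAV939 (-1.25, SE 0.12, adjusted p = 0.000148) and IWR-1 (-1.62, SE 0.12, adjusted p = 7.59e-06). With siTnks/2, *Gfpt1*, which opens the hexosamine pathway, was higher (0.53, SE 0.08, adjusted p = 0.00990) and the glycogen synthase *Gys1* was lower (-0.57, SE 0.10, adjusted p = 0.0141). The *Gfpt1* call was lost without control siRNA replicate 1 and the *Gys1* call without siTnks/2 replicate 1.

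Of other carriers of sugars and vitamin C, 1 of 9 passed with siTnks/2 (higher), 1 of 10 with XAV939 (lower) and 3 of 10 with IWR-1 (all lower), where 18.0%, 17.4% and 36.4% of all genes passed. The replicate block called 3 of them with siTnks/2 and 3 with XAV939, beside 4727 and 4630 of all genes, and DESeq2 2 in each. The glucose-6-phosphate carrier *Slc37a4* was lower with XAV939 (-0.75, SE 0.12, adjusted p = 0.00217) and with IWR-1 (-0.49, SE 0.12, adjusted p = 0.00777). The vitamin C carrier *Slc23a2* (-0.76, SE 0.19, adjusted p = 0.0106) and *Slc45a3* (-0.85, SE 0.20, adjusted p = 0.00516) were lower with IWR-1. With XAV939 they were at -0.60 (SE 0.19) and -0.44 (SE 0.19), every library below DMSO, and did not pass. *Slc37a2* was higher with siTnks/2 (1.40, SE 0.39, adjusted p = 0.0420) at 1.67 ± 0.666 CPM against 0.586 ± 0.188, a call that held only without siTnks/2 replicate 2 among the fits that left out 1 library.

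Of 21 genes of transporter traffic and turnover, 6 were higher and 1 lower with siTnks/2, and 3 higher and 5 lower with IWR-1. Of all genes, 18.0% passed with siTnks/2, 17.4% with XAV939 and 36.4% with IWR-1, and the IWR-1 count was close to that share. With XAV939 edgeR called 0, with 3 at an unadjusted p under 0.05, and DESeq2 called 2. The sorting receptor *Sort1* was higher with siTnks/2 (1.06, SE 0.09, adjusted p = 0.00298). The arrestin *Arrdc4*, of a protein family that promotes removal of GLUT1 from the cell surface, was higher with siTnks/2 (0.64, SE 0.11, adjusted p = 0.0127) and lower with IWR-1 (-0.73, SE 0.10, adjusted p = 0.000238). The siTnks/2 call of *Arrdc4* was lost without control siRNA replicate 3 or siTnks/2 replicate 1. *Stom*, a membrane protein that binds GLUT1, was lower with IWR-1 (-0.73, SE 0.17, adjusted p = 0.00547).

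Of 17 sugar and oxygen sensing factors, 3 were higher and 2 lower with siTnks/2, 0 higher and 3 lower with XAV939, and 3 higher and 5 lower with IWR-1. Beside these, 18.0%, 17.4% and 36.4% of all genes passed, and the XAV939 count was close to that share. *Egln3*, an oxygen-sensing prolyl hydroxylase, was at 134 ± 3.71 CPM with DMSO, 40.0 ± 2.91 with XAV939 (-1.75, adjusted p = 1.33e-05) and 22.3 ± 2.01 with IWR-1 (-2.59, adjusted p = 6.89e-07). *Vhl*, part of the ligase that degrades HIF factors, was lower with XAV939 (-1.04, SE 0.09, adjusted p = 8.86e-05), and *Epas1*, which encodes HIF-2α, was lower with IWR-1 (-1.22, SE 0.11, adjusted p = 1.47e-05). With siTnks/2, *Myc* was lower (-0.75, SE 0.18, adjusted p = 0.0329) and *Tigar* higher (0.61, SE 0.13, adjusted p = 0.0232), and both calls were lost without any 1 control siRNA library or siTnks/2 replicate 1.

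Around the urate carrier *Slc2a9*, 6 genes of urate handling were tested. The purine enzyme *Pnp* was lower with siTnks/2 (-1.36, SE 0.26, adjusted p = 0.0177) and IWR-1 (-0.80, SE 0.11, adjusted p = 0.000205), and the former call was lost without control siRNA replicate 1 or 3 or siTnks/2 replicate 1. Urate oxidase (*Uox*) was lower with IWR-1 at 0.216 ± 0.166 CPM against 0.676 ± 0.0458 with DMSO (adjusted p = 0.0437, n = 3 each, edgeR), a call lost without any 1 DMSO library, IWR-1 replicate 1 or IWR-1 replicate 2. With XAV939, where *Slc2a9* was higher, edgeR called 0 of the 6 genes, also at an unadjusted p under 0.05 and with DESeq2. Of all genes tested, 17.4% passed in that contrast.

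**Figure D4:**
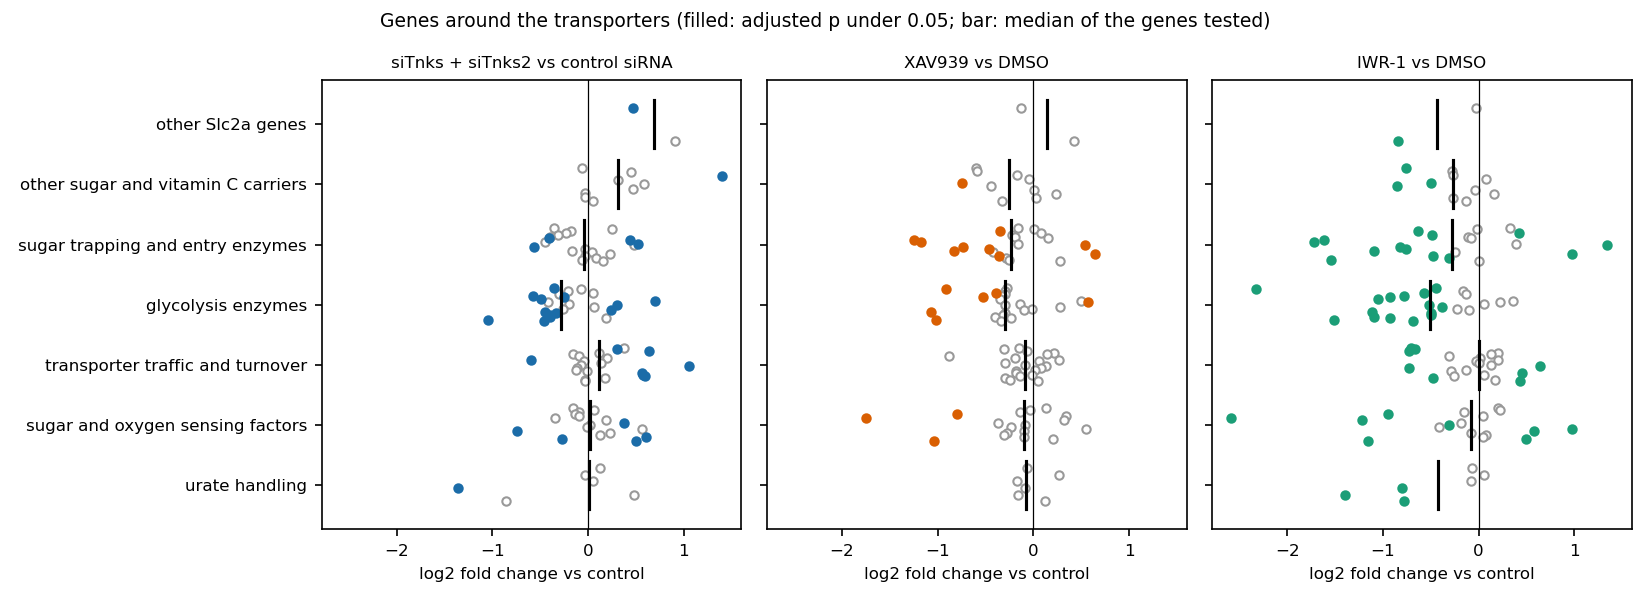
Log2 fold change (x axes) of each tested gene in the lists around the transporters (y axis), for siTnks/2, XAV939 and IWR-1 against the matching control. Filled points have an adjusted p under 0.05, and vertical bars are the medians of the genes tested. Of 22 genes in the list of glycolysis enzymes, which includes lactate carriers, 15 were lower and 0 higher with IWR-1.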

How the data were processed

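RNA was sequenced from 15 libraries of mouse articular chondrocytes in a siRNA and a drug set. Libraries were prepared with a stranded mRNA kit. Per the submitters' processing notes the authors used Trimmomatic 0.32, TopHat2 2.0.13 and HTSeq 0.6.1p1 with mm10, and deposited raw counts per Entrez gene. Neither the annotation nor how strand was handled is given in the sources used here.

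Tests were run with edgeR 4.0.16 under R 4.3.3 (filterByExpr, TMM, quasi-likelihood F test, Benjamini-Hochberg adjustment over 13672 genes for siRNA, 13873 for drugs and 14271 over all 15 libraries). A prior count of 2 entered the log2 fold changes, which understates changes of low genes. The SE of the edgeR fits is the absolute log2 fold change without that prior count, divided by the square root of F. It thus belongs to a slightly different estimate than the value it stands beside, most so for low genes. CPM were normalised within each set, and lengths are unions of GENCODE exons (GRCm38). Gene symbols matched 24051 of 24134 IDs.

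After removal of group means, libraries of the same replicate number correlated at 0.424 to 0.519 in the siRNA set and 0.143 to 0.553 in the drug set. The numbers come from the column names, and every pair passed 0.1. Libraries of different numbers reached 0.0972 and 0.318.

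The members and lists were chosen with earlier results of these data known. Named genes are the members, the other Slc2a genes, *Tnks* and *Tnks2*, for each member the 2 genes nearest in course, and for each list and contrast the 2 called genes with the largest absolute log2 fold change. Some genes named by these criteria are not reported here. Alternatives were RLE and upper-quartile scaling, no filter or a minimum of 10 counts, DESeq2 1.42.0, the replicate block, fits of 2 groups and leaving out each library. The steps were tested on simulated data.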

Additional observations from a re-analysis of the deposited data

Results flagged for a closer look

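Some transcripts had every treated library above the controls in one contrast and every treated library below in another. Groups did not overlap for 43.8%, 33.2% and 51.1% of all genes with siTnks/2, XAV939 and IWR-1. The share of all genes that reversed in this way was not counted. The differences between these effects were not tested. Values are log2 fold changes, and those of the drugs share the DMSO libraries. *Slc2a12* was at 0.89 with siTnks/2, -0.96 with XAV939 and -0.55 with IWR-1 (not called). *Slc2a6* was at 0.57 with XAV939, -1.43 with siTnks/2 and -1.16 with IWR-1.

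Among the other genes, *Slc2a4* was at 0.42 with XAV939 (not called) and -0.84 with IWR-1. *Gbe1* was at 0.44 with siTnks/2, -1.25 with XAV939 and -1.62 with IWR-1. *Vhl* was at 0.51 with siTnks/2, -1.04 with XAV939 and -1.16 with IWR-1. *Slc37a4* was at 0.58 with siTnks/2 (not called), -0.75 with XAV939 and -0.49 with IWR-1. *Slc45a3* was at 0.47 with siTnks/2 (not called), -0.44 with XAV939 (not called) and -0.85 with IWR-1. *Arrdc4* was at 0.64 with siTnks/2 and -0.73 with IWR-1. *Myc* was at 0.58 with IWR-1 and -0.75 with siTnks/2. *Epas1* was at 0.32 with XAV939 (not called) and -1.22 with IWR-1.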

How the results depend on the processing

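Over the 8 transporters and 5 contrasts, 599 of 644 values under the alternatives kept their side of the limit and their direction, apart from uncalled values that crossed 0 within their SE. Another 33 no longer passed, 10 newly passed and 2 uncalled values changed sign by more than that. The cause was not tested. With the replicate block, which pairs libraries of the same number, the genes called went from 2459 to 4727 with siTnks/2, from 2416 to 4630 with XAV939 and from 2442 to 4258 between IWR-1 and XAV939. The listed sugar-handling genes called went from 32 to 49 and from 19 to 35 with siTnks/2 and XAV939. Beyond *Slc2a5* with XAV939, *Slc2a12* with IWR-1 and *Slc2a8* between the drugs, the block changed no call of a transporter. DESeq2 called 30 of the listed genes with XAV939, and the fit of only the 2 groups called 1569 genes there. Without 1 library at a time, the genes called ranged from 608 to 2868 (siTnks/2), 1322 to 2484 (XAV939) and 1343 to 3044 (IWR-1 against XAV939), the transporters called from 0 to 4 (siTnks/2) and from 2 to 5 (IWR-1 against XAV939), and the listed genes called from 6 to 36 (siTnks/2) and 12 to 23 (XAV939). Signs changed when single libraries were left out. With siTnks/2 the values ran from -0.18 to 0.20 for *Slc2a3*, from -0.33 to 0.38 for *Csrnp1* and from -0.25 to 0.028 for *Egln1* (most positive without control siRNA replicate 2), from -0.031 to 0.25 for *Slc2a10* and from -0.0073 to 0.17 for *Btrc* (negative without siTnks/2 replicate 2). Without DMSO replicate 3 they reached the upper ends of the ranges of *Gfpt1* (-0.28 to 0.016) and *Slc37a2* (-0.49 to 0.26) with XAV939 and of *Slc37a2* (-0.56 to 0.17) and *Tnks* (-0.51 to 0.47) with IWR-1. *Slc2a5* had 8, 33 and 8 counts in the DMSO libraries, the fewest of any transporter, at totals of 31046712 to 36342916 counts.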
